A study of Caenorhabditis elegans with 2 samples.

Results

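The clusters of Piwi-interacting RNA (piRNA) genes on chromosome IV of Caenorhabditis elegans held 304 SNPC-1.2 peaks whose summits lay more than 250 bp from every annotated gene 5' end. Anti-GFP chromatin immunoprecipitation with sequencing (ChIP-seq) peaks from whole L4 larvae were taken on assembly ce11. The members were the peaks of the list thresholded by the irreproducible discovery rate (IDR) from both replicates, with a summit between 4.5 and 7.0 Mb (first region) or between 13.5 and 17.2 Mb (second region). No 5' end of a gene of any biotype in the Ensembl annotation (WBcel235, the same build) lay within 250 bp of such a summit. They made up 29.5% (exact 95% interval 26.7 to 32.4%) of the 1031 cluster peaks and 10.7% of the 2829 peaks on nuclear chromosomes. Of the other cluster peaks, 593 lay within 250 bp of the 5' end of a piRNA gene and 134 near the 5' end of another gene.

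There was 1 group with 2 biological replicates and no second condition. The animals were of strain RW12251, in which CRISPR was used to insert a tag into snpc-1.2 on chromosome III (allele st12251, with TY1, EGFP and 3xFLAG). They had been synchronized by bleaching and L1 starvation and were L4 larvae at 48 hours, and sonicated fragments had a size range of 200 to 800 bp. Chromatin came from whole animals, so signal from the germ line and from other tissues was pooled. The control experiment was not analysed here, read depth is unknown, and intervals cover counting of peaks only.

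By its name SNPC-1.2 belongs to SNAPc, the snRNA-activating protein complex. It binds upstream of small nuclear RNA (snRNA) genes transcribed by RNA polymerase II or III. In C. elegans, SNAPc proteins also act at piRNA genes. Each of these genes encodes a single short RNA of the germ line, transcribed by RNA polymerase II as its own unit, and many carry an upstream motif with the core CTGTTTCA. Transfer RNA genes are transcribed by RNA polymerase III from an internal A box and B box. Here the A box was searched as TGGCNNAGT, the B box as GTTCGANNC and its shorter core as TCGANNC, all on both strands.

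Sequences from 75 bp before to 75 bp after the summit are given for members that differ in these elements. All are from the RefSeq genome of the same build, plus strand, 5' to 3', and are credited to RefSeq (WBcel235). The 3 members of highest signal that held CTGTTTCA lay in a coding exon of lact-9, a coding exon of eef-1B.2 and an intron of unc-44, and capitals mark the motif on either strand.
lact-9, IV:13782393-13782543: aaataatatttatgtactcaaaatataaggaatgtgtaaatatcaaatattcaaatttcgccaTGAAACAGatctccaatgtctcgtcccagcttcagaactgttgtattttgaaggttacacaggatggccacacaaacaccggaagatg
eef-1B.2, IV:15037601-15037751: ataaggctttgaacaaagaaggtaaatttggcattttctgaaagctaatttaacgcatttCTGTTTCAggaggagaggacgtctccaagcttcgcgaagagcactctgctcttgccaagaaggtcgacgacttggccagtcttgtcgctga
unc-44, IV:5987777-5987927: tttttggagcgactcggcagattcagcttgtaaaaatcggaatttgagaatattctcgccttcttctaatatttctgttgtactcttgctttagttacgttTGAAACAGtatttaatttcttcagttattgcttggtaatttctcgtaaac

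The 3 members of highest signal without that motif were the 3 highest of all members. In the first, capitals mark an A box followed on the same strand by a B box core. In the second, capitals mark 14-base arms that are inverted copies of each other, with 42 bases between them. The last had neither box nor inverted arms of 8 or more bases.
intron of Y105C5A.15, IV:15693381-15693531: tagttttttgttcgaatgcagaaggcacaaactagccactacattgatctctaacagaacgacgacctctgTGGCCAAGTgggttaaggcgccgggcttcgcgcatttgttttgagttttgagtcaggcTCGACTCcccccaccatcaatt
between genes, IV:14525680-14525830: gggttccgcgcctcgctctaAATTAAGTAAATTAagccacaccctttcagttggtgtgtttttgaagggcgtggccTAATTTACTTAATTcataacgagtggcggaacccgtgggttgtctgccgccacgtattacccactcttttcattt
intron of zip-7, IV:16503712-16503862: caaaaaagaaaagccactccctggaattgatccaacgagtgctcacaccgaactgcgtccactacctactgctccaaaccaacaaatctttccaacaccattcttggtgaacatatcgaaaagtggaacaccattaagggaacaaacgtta

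An A box followed by the B box core was found in 5 other members, 3 of which are shown with both elements in capitals, on either strand.
between genes, IV:16731396-16731546: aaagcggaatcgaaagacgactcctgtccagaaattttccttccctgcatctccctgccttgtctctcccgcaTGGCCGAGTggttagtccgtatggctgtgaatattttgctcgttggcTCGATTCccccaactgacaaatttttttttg
intron of Y73F8A.26, IV:15476482-15476632: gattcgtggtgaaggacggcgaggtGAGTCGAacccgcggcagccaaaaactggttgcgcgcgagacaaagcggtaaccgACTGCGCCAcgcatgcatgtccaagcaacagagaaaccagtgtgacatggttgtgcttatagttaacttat
between genes, IV:13504194-13504344: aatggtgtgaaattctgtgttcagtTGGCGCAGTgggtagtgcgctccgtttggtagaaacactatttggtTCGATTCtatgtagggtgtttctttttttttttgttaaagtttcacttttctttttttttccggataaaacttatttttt

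The next sequences stand for the 2 largest families of similar members, which are described further on. Capitals mark the 8-base word shared by most summits of the family on either strand, CTCACCAC in family 1 and GAAAAGGC in family 2. Each is the member of highest signal that holds the word.
family 1, between genes, IV:13922391-13922541: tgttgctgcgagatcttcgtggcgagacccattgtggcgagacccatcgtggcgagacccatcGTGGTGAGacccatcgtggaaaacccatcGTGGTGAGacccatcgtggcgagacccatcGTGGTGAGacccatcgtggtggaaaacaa
family 2, in the pseudogene B0513.6, IV:13855512-13855662: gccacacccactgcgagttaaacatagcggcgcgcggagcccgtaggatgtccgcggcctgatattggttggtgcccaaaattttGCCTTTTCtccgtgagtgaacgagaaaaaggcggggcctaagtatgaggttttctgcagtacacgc

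The members were unevenly divided between the 2 regions. The first region held 96, which were 53.0% of its 181 peaks, in a region where 55.2% of bases lay over 250 bp from a 5' end. In the second region there were 208, or 24.5% of its 850 peaks, where 33.5% of bases lay that far. Per Mb of such bases, the second region had 168 members and the first 69.5. The other cluster peaks numbered 261 per Mb of bases near a 5' end in the second region and 75.9 in the first. Over both regions, positions far from a 5' end thus held 116 members per Mb and positions near one held 203 other peaks per Mb.

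In the median, members were about as high as the rest of the list, and their upper quartile was higher. The signal value is the peak caller's own measure, with no stated scale. Groups of peaks were compared by it within a list only. The median signal was 107 in members (quartiles 87.1 and 191, range 2.09 to 1601). In the other 2525 nuclear peaks it was 107 (quartiles 86.9 and 160). It was 98.3 in the 593 peaks near a piRNA gene, 247 in the 134 other cluster peaks near a 5' end and 97.0 in the 890 peaks that lay far from 5' ends outside the clusters. In each replicate's own list, the ratio of the median of the members to that of the other nuclear peaks was 0.991 ± 0.0248 (SD, n = 2). Members, which were 10.7% of all nuclear peaks, made up 26 of the 100 highest and 3 of the 10 highest. Within the members, the median was 112 in the second region and 97.4 in the first.

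The 10 highest members were all in the second region and all had a call in both replicates. The highest, with its summit at 15693456, had a signal of 1601 in the whole-series list, 762 in replicate 1 and 841 in replicate 2. It lay in an intron of the protein-coding gene Y105C5A.15, 471 bp upstream of the 5' end of 21ur-10279, a piRNA gene. The next, at 14525755, had 1577, with 679 and 846 in the replicates, and was the widest member at 986 bp. It lay between genes, 326 bp downstream of the 5' end of 21ur-15698. Next came the member at 16503787, which had 1410, with 637 and 777, in an intron of zip-7, which encodes a bZIP transcription factor, 1895 bp downstream of its 5' end.

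Signals of 1173 and 1102 followed. The first of these, at 14838329, had 499 in replicate 1 and 656 in replicate 2, and lay in an intron of Y57G11C.22, 310 bp upstream of 21ur-10291. Its window held 2 matches to the B box. The other, at 13855587, had 491 and 575, and lay in an intron of the pseudogene B0513.6. None of its 50-base words occurred only once in the genome, so the deposited position of that signal rests on repeated sequence. The remaining 5 of the 10 had signals from 745 to 929 and lay between genes. Their nearest 5' ends were those of the piRNA genes 21ur-9582 (853 bp) and 21ur-3793 (636 bp), the pseudogene Y116A8A.10 (1885 bp), the non-coding RNA gene Y41E3.460 (338 bp) and rpl-29 (264 bp), which encodes a protein of the large ribosomal subunit. Replicate 2 was above replicate 1 in all 10. The same held for 185 of all 304 members (60.9%), 1594 of all 2829 nuclear peaks (56.3%) and 105 of the 134 other cluster peaks near a 5' end (78.4%). These totals include peaks without a call in both replicates, which 272, 2518 and 130 of them had. The replicate values come from different lists of unstated scale.

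Replicate values came from the ranked list of each replicate, as the highest call with a summit within 100 bp. Replicate 1 had a call at 284 members, with a median signal of 55.7, and replicate 2 at 286, with a median of 62.8. Over the 272 members with both, Spearman's rho between the replicates was 0.65 and Pearson's r of log10 signal 0.85. These describe peaks of the same 2 libraries, which were selected for reproducibility by the IDR procedure. High members were close to a straight line, and the many members near 50 in both replicates formed a cloud.

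**Figure D1:**
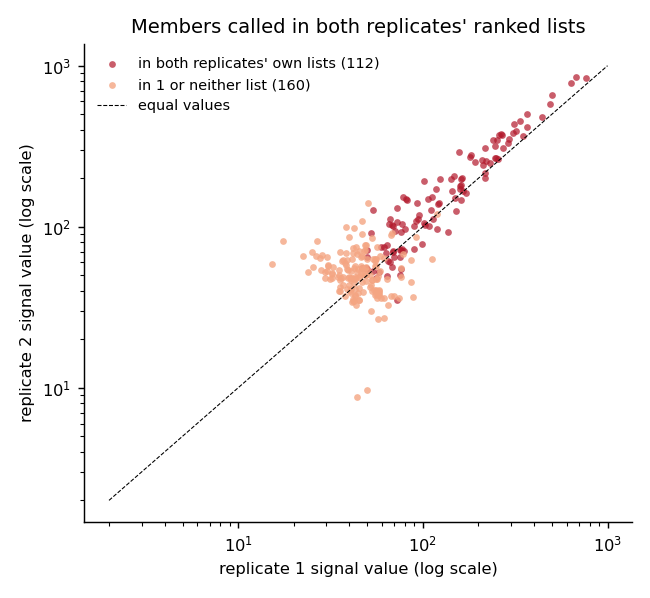
Signal value of the 272 members called in both replicates' ranked lists, replicate 1 on the horizontal and replicate 2 on the vertical axis, both on log scales. Dark points overlap a peak in both replicates' own thresholded lists, light points in 1 or neither, and the dashed line marks equal values. The highest members, up to 762 in replicate 1 and 846 in replicate 2, are dark and lie along the line.

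Each replicate's own thresholded list held about 6 in 10 of the members or fewer. A peak of replicate 1's list overlapped 157 members (51.6%), against 46.2% of all nuclear peaks. For replicate 2 there were 180 (59.2%), against 55.8%. Both lists overlapped 122 members (40.1%, interval 34.6 to 45.9%), against 35.6% of all nuclear peaks, and 89 members (29.3%) were in neither. The conservative list held 255 (83.9%), against 81.3%, and 136 (44.7%) had a global IDR of at most 0.001, against 43.9%. These shares were near those of the whole list.

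Overlap depended on height. Of the 30 highest members, 100% overlapped a peak in both lists, as did 97.8% of the next 46. For the next 76 the share was 47.4%, and for the lowest 2 sets of 76 it was 7.89% and 6.58%. Peaks near a piRNA gene overlapped both lists in 22.6% of cases, and peaks far from 5' ends outside the clusters in 21.9%. Signal also takes part in the thresholding of each list, so height and overlap are not independent measures.

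When the same rule was applied to each replicate's own list, 179 members were found in replicate 1 (37.7% of 475 cluster peaks) and 199 in replicate 2 (29.8% of 667). Of the 179, 133 overlapped a peak of replicate 2, and of the 199, 127 overlapped a peak of replicate 1. The average was 189 ± 14.1 members per replicate (SD, n = 2).

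The lowest members each lay beside a stronger peak. Signal values under 25 were found in 13 members (4.28%), against 3.92% of all nuclear peaks, and the next member above them had 55.3. Each of the 13 was exactly 340 bp wide and had its summit 199 to 253 bp from a peak of higher signal (70.2 to 358). Of the other 291 members, 27 had another peak that close. Over the nuclear list, 110 of the 111 peaks under 25 had one. Without the 13, the median signal of the members was 111.

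The limit of 250 bp cut through a continuous range of distances. The nearest members inside it had their closest 5' end at 252 bp, in the non-coding RNA gene Y73B6BL.284 (signal 201), and at 255 bp, in a protein-coding gene (signal 102). Just outside the rule were cluster peaks at 250 bp from C49A9.10 (signal 459) and at 244 bp from 21ur-6874 (signal 141). The median distance of the members was 751 bp and the longest 7451 bp, where the median of all cluster bases over 250 bp from a 5' end was 725 bp. The 105 members at up to 500 bp had a median signal of 126, the 84 from there to 1000 bp 107, the 68 up to 2000 bp 104 and the 47 farther away 99.1. The quartiles of these groups overlapped, at 92.2 to 252 for the closest and 83.0 to 148 for the farthest. In 3 members the peak interval itself still reached over a 5' end.

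The nearest 5' end belonged to a protein-coding gene for 132 members, to a piRNA gene for 128, to a gene annotated as ncRNA for 19 and to a pseudogene for 12. The other 13 were nearest to snoRNA, miRNA, antisense RNA, lincRNA or tRNA genes. Members nearest a piRNA gene were upstream of it in 65 of 128 cases, and those nearest a protein-coding gene in 45 of 132. Median signals were 108 and 106 in these 2 sets. Nearest genes and sides were not counted for far bases or other peaks, so these counts cannot be read as particular to members. The closest member to the 5' end of a tRNA, snRNA or other short structured RNA gene was 359 bp away, and the median distance was 26785 bp.

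Relative to genes, members lay between genes more often than the positions available to them. Between genes were 135 (44.4%, interval 38.7 to 50.2%), where 35.2% of the far cluster bases are. Introns of protein-coding genes held 85 (28.0%, 23.0 to 33.4%), against 30.3% of those bases. Coding exons held 53 (17.4%, 13.3 to 22.2%), against 24.6%. UTR exons held 24 (7.89%, 5.12 to 11.5%), against 3.86%. Introns of non-coding genes held 6, and an exon of a non-coding gene 1. By region, 39.6% of members of the first (29.7 to 50.1%) lay between genes, against 33.5% of its far bases, which is inside that interval, and 46.6% of those of the second (39.7 to 53.7%), against 37.1%. A gene 3' end was within 250 bp of 50 members (16.4%, 12.5 to 21.1%), against 12.1% of the far bases. In the lists of the replicates, 48.1 ± 0.139% of members lay between genes (SD, n = 2). Far peaks outside the clusters had similar shares, with 44.2% between genes and 19.7% in coding exons.

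**Figure D2:**
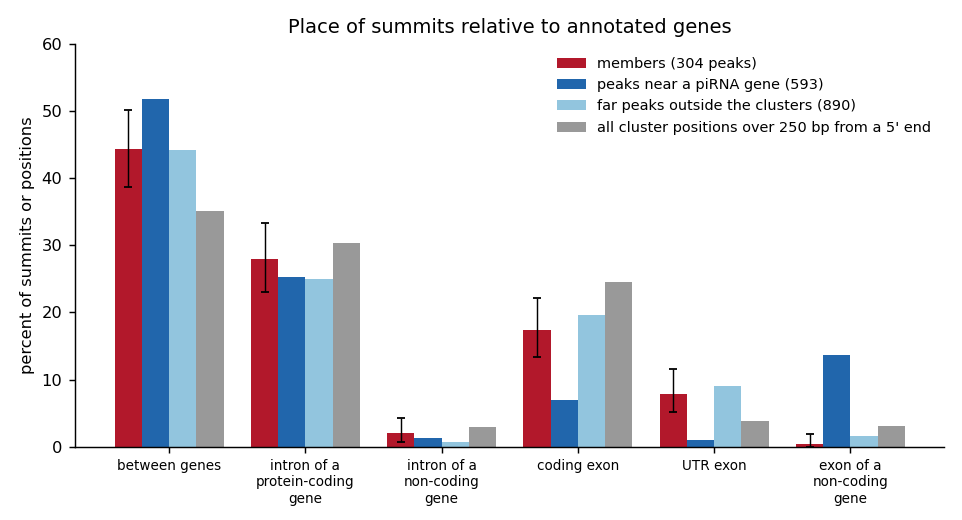
Percent of summits in each kind of place relative to annotated genes, for the 304 members with exact 95% intervals, the 593 cluster peaks near a piRNA gene, the 890 far peaks outside the clusters, and all cluster positions over 250 bp from a 5' end. Members stand at 44.4% between genes and 17.4% in coding exons, and all far positions at 35.2% and 24.6%.

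Signal differed with place. Members between genes had a median of 128 (range 3.01 to 1577) and those in introns of protein-coding genes 115 (4.12 to 1601). Members in coding exons had a median of 92.2 and none was above 222. Both replicates' lists overlapped 67 of the 135 members between genes, 40 of the 85 in introns of protein-coding genes and 4 of the 53 in coding exons. The coding-exon members had a median GC content of 47.0% and 3 piRNA 5' ends within 5 kb, against 44.4% and 15 between genes. The first region had 22.9% of its members in coding exons and 13.5% in UTR exons, against 28.3% and 4.89% of its far bases. In the second these were 14.9% and 5.29% of members, against 20.5% and 2.72% of its far bases.

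Inside protein-coding genes lay 162 members, in 122 genes, 30 of which held 2 or more. The gene nkcc-1 (IV 14107656 to 14124056), which encodes a sodium-potassium-chloride cotransporter, held 6, with 26 piRNA genes inside its span. Its strongest, in an intron, had a signal of 525, with 217 in replicate 1 and 307 in replicate 2, and the other 5 had 87.8 to 185. The gene hrpu-1, for a homolog of the RNA-binding protein hnRNP U, also held 6, from 67.8 to 255, and no piRNA gene. In ari-1.4, which encodes an Ariadne-type ubiquitin ligase, there were 5, from 6.06 to 624, of which 3 in coding exons and 2 in introns. The strongest had 257 in replicate 1 and 373 in replicate 2. Y105C5A.15 held 3. Of the genes with 2, zip-7 is named because ties were resolved by the highest signal. In each of the 5 genes the highest member had a call in both replicates and was intronic.

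The spacing of members varied widely. The median distance to the nearest other member was 1995 bp (quartiles 664 and 8092 bp), and 205 members (67.4%) had another within 5 kb. Peaks near a piRNA gene, which were more numerous, had a median spacing of 1637 bp, with 84.0% within 5 kb of another. For the 890 far peaks outside the clusters, which are spread over the rest of the genome at a lower density, it was 15972 bp. None of these values is adjusted for density. Counting peaks of any kind, the nearest neighbour of a member was 1049 bp away in the median. In the first region the spacing of members was 1657 bp and in the second 2101 bp. In the replicates' own lists, with fewer peaks, the median spacing was 5199 bp in replicate 1 and 2731 bp in replicate 2, and with the 136 members at a global IDR of at most 0.001 it was 9197 bp.

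**Figure D3:**
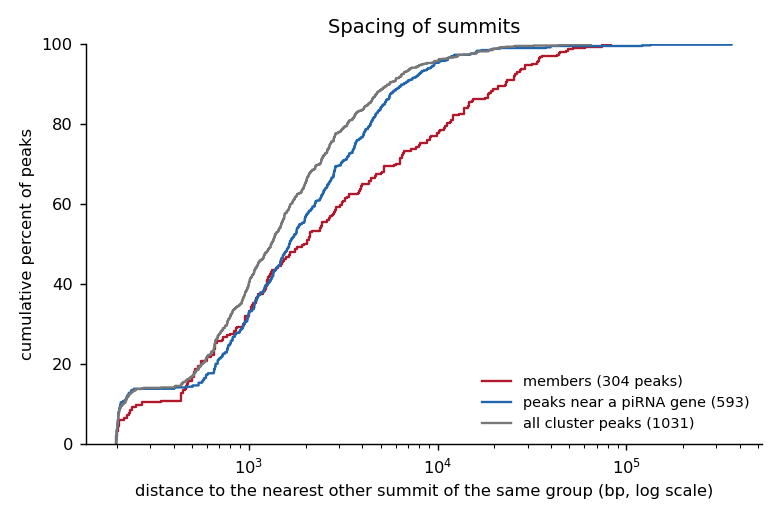
Cumulative percent of peaks by the distance to the nearest other summit of the same group, on a log scale, for the 304 members, the 593 peaks near a piRNA gene and all 1031 cluster peaks. The members' curve reaches 67.4% at 5 kb, where that of peaks near a piRNA gene is at 84.0%, and extends to 82777 bp.

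Joined where successive summits were under 5 kb apart, 205 members formed 70 runs and 99 stood alone. There were 15 runs of 4 or more, with 77 members. The longest had 10 members over 12.1 kb (summits at IV 15037676 to 15049824), across eef-1B.2, which encodes a subunit of a translation elongation factor, hrpu-1 and srt-47, which encodes a chemoreceptor-like protein. No piRNA 5' end lay inside it. Its signals ranged from 4.61 to 255 with a median of 102, and 3 of the 10 overlapped both replicates' lists. The next had 7 members over 11.4 kb (13881961 to 13893360), around rpl-29, thoc-7, for a subunit of the THO mRNA export complex, and lin-66, a developmental timing gene. It contained 16 piRNA 5' ends, and its signals ranged from 70.3 to 745.

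Far from 5' ends, members still had piRNA genes around them, at a lower density than peaks at piRNA genes. The median number of piRNA 5' ends within 5 kb was 7.5 for members, 43 for the 593 peaks near a piRNA gene and 6 for all far cluster bases. It was 6 for the 134 other cluster peaks near a 5' end, which also lay over 250 bp from any piRNA 5' end. The contrast with peaks near a piRNA gene is set in part by the choice of the groups. In the replicates' own lists it was 11 ± 4.24 for members and 42 ± 1.41 for peaks near a piRNA gene (SD, n = 2). The second region had a median of 17.5 at members and 14 at its far bases, and the first 2 at members and 3 at its far bases. No piRNA 5' end lay within 5 kb of 71 members (23.4%, 18.7 to 28.5%), against 28.4% of far bases and 32.8% of the 134 other peaks. There were 20 or more around 101 (33.2%, 28.0 to 38.8%), against 25.3% of far bases and 30.6% of the 134 other peaks. These pooled shares mix regions that hold different parts of the members and of the far bases. Within the first region 5.21% of members (1.71 to 11.7%) had 20 or more, against 12% of its far bases, and within the second 46.2% (39.2 to 53.2%), against 40.1%.

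With distance the density around members was higher, as it was around far bases, and around peaks near a piRNA gene it was lower. These directions follow from the choice of each group by its distance to 5' ends. At 0.5 to 2 kb members had 1.19 piRNA 5' ends per kb, peaks near a piRNA gene 4.20 and far bases 1.06. At 10.5 to 20 kb the values were 2.24, 3.48 and 1.70. The 71 members with no piRNA gene within 5 kb had a median signal of 99.1 and the 33 with 40 or more 129, with quartiles of 83.7 to 159 and 90.6 to 357. Of the 71, 36 lay in the second region, as did all 33. Density and region are therefore mixed in these values.

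**Figure D4:**
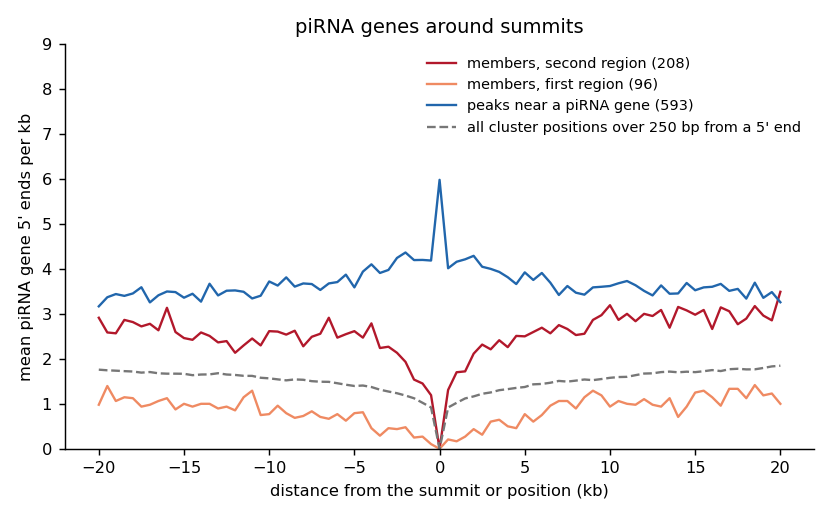
Mean number of piRNA gene 5' ends per kb by distance from the summit, for the 208 members of the second region, the 96 of the first, the 593 peaks near a piRNA gene, and all cluster positions over 250 bp from a 5' end. Around members the density is at 0 in the centre, by the rule, and higher farther out, and away from the centre it is lower in the first region than in the second.

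The motif of piRNA genes was rare at the members. CTGTTTCA was within 75 bp of 4 summits (1.32%, 0.360 to 3.33%), and the 2.45% of far cluster bases is inside that interval. Peaks near a piRNA gene had it in 28.5% of cases, a contrast set by the rule, since the motif lies just upstream of piRNA 5' ends. Its shorter core GTTTCA was at 29 (9.54%, 6.48 to 13.4%), against 17.5% of far cluster bases and 48.9% of peaks near a piRNA gene. In the replicates' own lists CTGTTTCA was at 1.34 ± 0.474% of members and 22.8 ± 3.52% of peaks near a piRNA gene (SD, n = 2). The 4 members with it had signals from 21.6 to 99.8, and none overlapped a peak in both replicates' lists. Only the member in unc-44, which encodes ankyrin, and the one without a host gene had a piRNA gene as nearest 5' end, at 277 and 379 bp upstream of 21ur-8164 and 21ur-10986.

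Members were richer in G and C than the sequence available. Within 75 bp of the summit the median GC content was 43.7% at members, 31.1% at peaks near a piRNA gene and 35.1% at far cluster bases. It was 43.7% over all nuclear peaks too, and 45.0% at far peaks outside the clusters. In the replicates' own lists it was 43.4 ± 2.34% at members and 34.6 ± 4.92% at peaks near a piRNA gene (SD, n = 2). GC content can also affect the recovery of fragments in sequencing, and its part in the peak calls was not tested. The part of GC content in the shares of GTTTCA above and of the boxes below, against far bases, was not tested either.

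**Figure D5:**
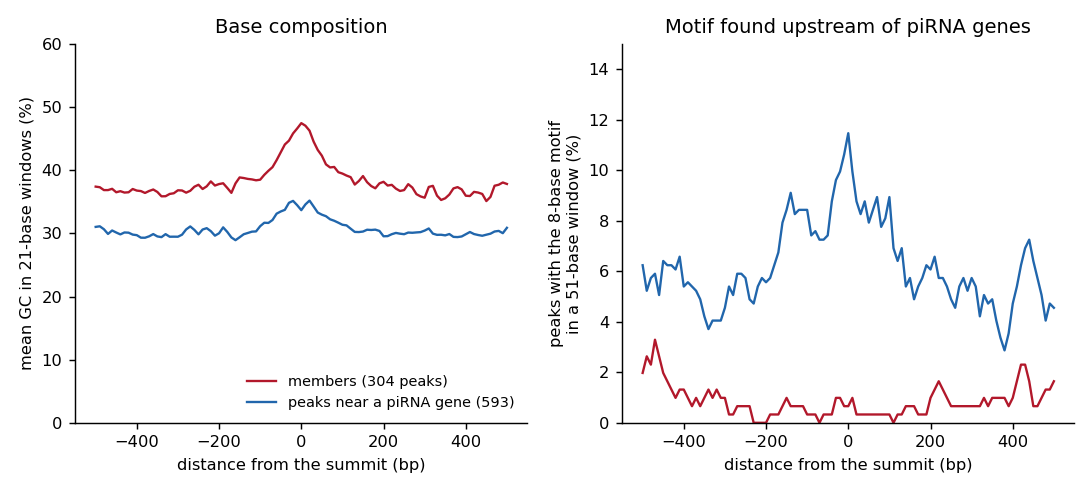
Left, mean GC content in 21-base windows by distance from the summit, and right, percent of peaks with the 8-base motif in a 51-base window, for the 304 members and the 593 peaks near a piRNA gene. The members' GC content peaks at the summit and lies above that of peaks near a piRNA gene throughout, and their motif share stays below it.

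Boxes of RNA polymerase III genes marked some of the highest members. The A box was at 16 members (5.26%, 3.04 to 8.41%), against 1.54% of far bases and 4.95% of all nuclear peaks. The B box was at 11 (3.62%, 1.82 to 6.38%), against 0.912% and 11.5%. At least 1 of the 2 was at 23 members (7.57%, 4.86 to 11.1%), above the 2.42% of far bases and below the 14.8% of all nuclear peaks. The share was 7.75% in far peaks outside the clusters and 15.7% in the 134 other cluster peaks near a 5' end, and 21 of the 23 were in the second region. Their median signal was 357, and that of the 281 members with neither was 106. Both replicates' lists overlapped 16 of the 23. Of the 30 highest members, 9 had a box.

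The A box followed by the B core on the same strand, with starts 20 to 100 bases apart, was chosen as a pattern after the summits had been read. It was at 6 members (1.97%, 0.728 to 4.25%), against 0.0964% of far bases and 2.01% of all nuclear peaks. Their signals were 1601, 929, 683, 518, 481 and 105, and each was in the second region. In replicate 1 they had 762, 441, 309, 247, 230 and 48.8, and in replicate 2 841, 477, 382, 267, 248 and 72.1, in the same order. No gene of a short structured RNA had its 5' end within 9167 bp of any of the 6. An alignment to the annotated tRNA and snRNA genes (BLAST, E up to 1e-05) found no match at any of the 304 members, which allows a share of up to 0.987% (3 counts of the total). Among far peaks outside the clusters, 2 of 890 matched a tRNA gene, as did 1 of 5256 windows over far bases. The 12.9% over all nuclear peaks includes peaks at the tRNA genes themselves, which the rule keeps out of the members. A match to an annotated snoRNA gene was found at 8 members (2.63%), against 3.92% of all nuclear peaks and 2.72% of all cluster peaks. The share was 1.12% in far peaks outside the clusters and 0.723% in windows over far bases. The matches covered 29 to 62 bases at 74.2 to 97.8% identity. To Y73F8A.1175 there were 4, of which 2 were at neighbouring summits (14747535 and 14747806).

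By soft-masking of the genome, 111 members (36.5%, 31.1 to 42.2%) lay in repeats, meaning that at least 50% of the window was masked. This was close to the 33.2% of far cluster bases and the 36.3% of peaks near a piRNA gene, and above the 18.7% of far peaks outside the clusters. In the second region it was 44.2%, against 41.1% of its far bases, and in the first 19.8%, against 26.1%. Replicates' own lists gave 35.5 ± 0.409% (SD, n = 2). Of members between genes, 68 of 135 were in repeats, and of those in coding exons 0 of 53, which allows a share of up to 5.66% (3 counts of the total). Signal was alike in the 2 sets, at a median of 112 in repeats and 105 outside them.

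Windows made mostly of words that recur in the genome were less common. Under 50% of the 50-base words were unique in the genome at 36 members (11.8%, 8.43 to 16.0%), against 3.20% of peaks near a piRNA gene and 17.1% of far bases. At 199 members (65.5%) every word was unique, and at 2 none was. How reads with several matches were handled is not given in the sources used here, and its part in these peaks was not tested.

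Many members resembled each other. When windows of 100 bp on each side of the summits were aligned among members over 1000 bp apart, 104 of 304 (34.2%) fell into 17 families, 6 of which had 5 or more members. A family chains pairwise matches, so not every pair in it aligns, and this grouping was made after the values had been seen. The median signal was 143 in members of a family and 99.2 in the other 200. This grouping is given for members only, so the 34.2% has no other set of peaks beside it. Matches elsewhere in the genome were also frequent, in members and in other sets. At least 1 other alignment was found for 57.9% of members and 53.7% of other cluster peaks near a 5' end. It was 44.3% of all nuclear peaks, 31.9% of peaks near a piRNA gene and 44.5% of windows over far bases. At least 5 other alignments were found for 138 members (45.4%, 39.7 to 51.2%), against 15.9% of peaks near a piRNA gene, 41.0% of other cluster peaks near a 5' end, 33.6% of all nuclear peaks, 29.7% of far peaks outside the clusters and 24.9% of windows placed every 500 bp over far bases. The share was 56.7% in members of the second region and 20.8% in those of the first.

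Family 1 had 29 members, all in the second region and 26 of them between genes. Its signals ranged from 4.55 to 776 with a median of 104, and 10 overlapped both replicates' lists. CTCACCAC, picked as a word that most of its windows share, was in 18 of them. Of all members 19 (6.25%) held it, against 1.07% of far bases, a contrast set in part by that choice. The window shown above holds several copies of the word in a short tandem repeat. Family 2 had 27 members, 22 in the second region, with signals from 88.8 to 1102 and a median of 184. It includes the member in B0513.6 and the one at 16808767, with 779. GAAAAGGC, picked in the same way, was in 23 of its windows, in 24 of all members (7.89%) and in 0.741% of far bases. The 5 members of family 5 were higher, at a median of 634 (292 to 929), all 5 overlapped both lists, and 4 had a box.

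Copies of the families of 5 or more members were counted in the clusters and elsewhere. Copies were alignments of at least 80 bases and 80% identity, and a copy counted as occupied where the summit of a nuclear peak lay on it or within 100 bp. Of the 65 copies of family 2 in the clusters 48 were occupied, of 4 elsewhere on chromosome IV 0, and of 146 on other chromosomes 4. As the family was drawn from occupied cluster copies, the cluster count is fixed in part by the choice. Among the 39 cluster copies that held no member of the family, 22 (56.4%, 39.6 to 72.2%) were occupied, against 4 of 146 (2.74%, 0.751 to 6.87%) on other chromosomes. With copies of at least 50% unique words only, these were 13 of 25 and 2 of 99. Copies of family 5 were occupied in 6 of 8 cases in the clusters, or 1 of 3 without the copies that held its members, in 6 of 11 elsewhere on chromosome IV and in 20 of 62 (32.3%, 20.9 to 45.3%) on other chromosomes. For family 1 the counts were 23 of 59 in the clusters, 7 of 33 elsewhere on chromosome IV and 14 of 373 on other chromosomes. With copies of at least 50% unique words only, 0 of 11 elsewhere on chromosome IV and 1 of 227 on other chromosomes were occupied. Without the copies that held its members, 1 of 37 in the clusters was occupied. In the clusters, 13 of 21 copies of family 3, 9 of 12 of family 4 and 4 of 25 of family 6 were occupied. On other chromosomes these were 0 of 93, 13 of 245 and 4 of 648. Leaving out copies with members takes out occupied copies by the choice, which lowers the cluster counts of each family. Such counts therefore give no fair comparison with copies elsewhere. The clusters also held 36.4% of all nuclear peaks, at a higher density than the rest of the genome. No count was adjusted for peak density or for the length of copies. In family 1 the median length was 737 bp in the clusters and 283 bp on other chromosomes.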

How the data were processed

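ChIP-seq peak lists of 2 biological replicates and of the whole series were used as deposited. Per the file headers and notes, they were made from filtered alignments on ce11 and a control. The sources used here give neither the peak caller nor the aligner. Signal, in the deposited lists, is the caller's value for each peak, on an unstated scale. The deposited score is a scaled IDR capped at 1000, and the −log10 of the global IDR in the deposited ranked lists is capped at 5. The files give no read counts, so depth is unknown.

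Summits were placed against Ensembl release 115 genes with Python 3.11.15, pandas 2.3.3 and BLAST 2.17.0. Place took the first that applied of coding exon, UTR exon, non-coding exon, intron and between genes. Far bases are all cluster bases over 250 bp from a 5' end. Shares with an interval have the exact Clopper-Pearson 95% one, and a count of 0 has a limit of 3 counts of the total. No test was run, since there is 1 group. Families were joined at E up to 1e-06 over at least 50 bases. Of 600 simulated peaks, 600 were recovered as planted. They were placed with the same annotation and limit, so this checks the code and not the peak calls.

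The members and lists were chosen with earlier results of these data known. Named were the 10 highest members, 2 on each side of the limit, the 5 protein-coding genes with most members (ties by highest signal), the 2 longest runs and the summit sequences with the highest signal with and without CTGTTTCA. Box pairs, families and their shared words, RNA gene matches, the members of these that are named, the signal limit of 25 and the masking threshold were chosen after values had been seen. Alternatives were other distance limits, lists, annotations and windows.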

Additional observations from a re-analysis of the deposited data

How the results depend on the processing

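The 8 results were recomputed 76 times. In 27 of these the value stayed within the spread of the replicates, or the count within 1.5 times, and in 49 it moved. Spreads rest on 2 replicates and some are very small, so small shifts count as moved, and the cause was not tested. With a limit of 100 bp there were 515 members, with 51.3% between genes, a median signal of 111, 35.7% in repeats, 19 piRNA 5' ends within 5 kb and CTGTTTCA at 3.50%. With 500 bp there were 199, with 38.7%, a signal of 104, 41.2% in repeats and the motif at 0.503%. Using 5' ends of transcripts gave 47.0% between genes, a signal of 109 and 38.0% in repeats. Requiring only that no 5' end lay inside the peak gave 48.9%, 117 and 35.6%. The conservative list gave 43.9%, 111 and 37.4%, and the motif at 0.692%. A global IDR of at most 0.001 left 136 members, with 56.6% between genes, a signal of 216, a spacing of 9197 bp, 40.4% in repeats, 14 piRNA 5' ends and the motif at 0%. The lists of single replicates had 179 to 199 members, 48.0 to 48.2% between genes, a signal of 76.7 to 78.9, a spacing of 2731 to 5199 bp, 35.2 to 35.8% in repeats and 8 to 14 piRNA 5' ends. Signals of the single-replicate and conservative lists count as moved, although the scale of each list is unstated, so these moves cannot be read as a dependence on processing. Without signals under 25, a setting added after the data were seen, 44.7% lay between genes, the signal was 111 and 36.1% lay in repeats. Counting protein-coding spans only, 46.7% lay between genes. Repeats were 39.5% over 200 bp on each side, 40.1% over whole peaks and 11.8% by non-unique words, which was also added later. Scaled to 10 kb of sequence, the median number of piRNA 5' ends was 0 from 1 kb and 13 from 10 kb on each side. CTGTTTCA was at 2.96% over 150 bp on each side and 3.29% over whole peaks. Adding RefSeq 5' ends left 303 members.

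No paired analysis was possible because there was 1 group and nothing to pair its replicates with. The peaks carry no read depth, so the precision of single signal values is unknown.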
